A study of Mus musculus with 40 samples.

Results

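The genes described here are the regulators and targets of the transcription factor NRF2 that handle peroxides and electrophiles, together with the glutathione transferase family. They were chosen by name: the soluble glutathione transferases (Gsta, Gstk, Gstm, Gsto, Gstp, Gstt and Gstz), the membrane-bound transferases Mgst1 to Mgst3, the glutathione peroxidases, the peroxiredoxins, and Gclc, Gclm, Gss, Gsr, Srxn1, Txnrd1, Txn1, Nqo1, Slc7a11, Nfe2l2, Keap1, Cat and G6pdx. Of 51 genes with these names, 45 had a mean normalized count of 10 or more in at least 1 of the 4 tables, out of 20078 genes listed in all. The other 6 (Gpx6, Gsta1, Gsta13, Gsto2, Gstp3 and Gstt4) stayed under that mean everywhere and are not described. All 45 passed on their level over both exposure groups together, and no test between the groups entered the choice. Gsta2 reached that mean in male liver alone (21.7, against 8.74 in female liver and 2.28 in male gWAT). Its male liver mean rested on nicotine libraries 1 and 5 (114 and 66.3, against 1.28 to 7.91 in the other 8). Gsta2 is therefore a member only through libraries of the nicotine group. The genes were proposed with earlier results of these data known.

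The study profiled liver and gWAT (gonadal white adipose tissue, the fat depot around the reproductive organs) of male and female C57BL/6J mice, an inbred laboratory strain. Their fathers had been exposed either to nicotine or to a control treatment that the table headers name DMSO; the offspring are called the nicotine and the control group below, and all groups share the strain. The labels place 40 samples in 8 groups of 5, and 39 libraries were used, with 4 control libraries in male gWAT. The sources used here do not give the dose, the age of the offspring, or which fathers and litters the samples came from. The p-values therefore speak only to the spread between the samples, and that spread may be technical.

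Libraries were made by 3′-tag RNA sequencing, which counts each polyadenylated transcript by reads from its 3′ end, and held 1543208 to 2239073 reads each. Values are normalized counts, which are reads divided by a size factor of the library, and were compared within a table (1 tissue and sex). A gene was tested where its mean in the table was 10 or more. Each log2 change is the nicotine mean minus the control mean of log2(normalized count + 1), a scale that shrinks the change of genes with few reads, and adjusted p-values come from limma with Benjamini-Hochberg adjustment over all tested genes, with a threshold of 0.05. For females 36 members were tested in liver and 38 in gWAT, and for males 37 and 41.

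NRF2, encoded by Nfe2l2, is held at low levels by KEAP1, which delivers it to a ubiquitin ligase; electrophiles and oxidants modify cysteines of KEAP1, and NRF2 then accumulates and binds antioxidant response elements together with small MAF proteins. Its targets supply cystine and glutathione (Slc7a11, Gclc, Gclm, Gss, Gsr), reduce peroxides through thioredoxin and peroxiredoxins (Txn1, Txnrd1, Prdx1, Srxn1), and conjugate or reduce reactive compounds (glutathione transferases, Nqo1). In liver the transferases are among the main enzymes of drug conjugation, several of them differ between the sexes, and fat cells use the same enzymes against lipid aldehydes and peroxides.

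The antioxidant response element is the letter sequence that NRF2 binds. The promoters of 6 members, each with a match as described below, are printed here as examples. They were taken from RefSeq promoters on GRCm38.p6 (the assembly of mm10) and run 5′ to 3′ along the transcribed strand from 250 bases before the RefSeq start. Each ends before the first base that RefSeq or GENCODE places in an exon, except that Gstp1 runs on to the end of a match that crosses into an exon. Capitals mark 9-base matches, on either strand, to the core TGACNNNGC or to the same core with G in place of C, TGAGNNNGC. The Srxn1 promoter (sulfiredoxin, which repairs overoxidized peroxiredoxins) lies at chr2:152105274-152105515 (plus strand), Gclm (modifier subunit of glutamate-cysteine ligase) at chr3:122245307-122245556 (plus strand), Prdx1 (a cytosolic peroxiredoxin) at chr4:116685349-116685543 (plus strand) and Gsta3 (an alpha-class transferase) at chr1:21240335-21240584 (plus strand). Slc7a11 (the cystine importer subunit xCT) lies at chr3:50443615-50443863 (minus strand) and Gstp1 (a pi-class transferase) at chr19:4037978-4038162 (minus strand).
Srxn1: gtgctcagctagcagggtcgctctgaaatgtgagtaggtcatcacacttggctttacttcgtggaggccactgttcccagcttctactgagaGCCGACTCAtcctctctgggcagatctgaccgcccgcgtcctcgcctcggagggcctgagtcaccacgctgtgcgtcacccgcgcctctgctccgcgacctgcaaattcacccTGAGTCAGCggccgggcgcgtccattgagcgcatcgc
Gclm: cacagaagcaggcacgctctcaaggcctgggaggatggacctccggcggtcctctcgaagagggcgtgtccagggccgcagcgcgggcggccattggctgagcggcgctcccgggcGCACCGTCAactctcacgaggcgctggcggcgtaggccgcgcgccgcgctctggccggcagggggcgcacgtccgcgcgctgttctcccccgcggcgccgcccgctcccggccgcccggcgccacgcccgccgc
Prdx1: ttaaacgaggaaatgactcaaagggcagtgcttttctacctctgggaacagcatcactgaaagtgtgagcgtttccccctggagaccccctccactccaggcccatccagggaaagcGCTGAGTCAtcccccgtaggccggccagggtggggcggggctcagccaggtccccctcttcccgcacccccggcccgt
Gsta3: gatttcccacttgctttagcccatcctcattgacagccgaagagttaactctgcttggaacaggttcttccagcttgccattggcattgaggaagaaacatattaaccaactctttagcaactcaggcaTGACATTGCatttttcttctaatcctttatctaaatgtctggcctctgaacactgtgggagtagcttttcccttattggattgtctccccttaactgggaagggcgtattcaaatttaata
Slc7a11: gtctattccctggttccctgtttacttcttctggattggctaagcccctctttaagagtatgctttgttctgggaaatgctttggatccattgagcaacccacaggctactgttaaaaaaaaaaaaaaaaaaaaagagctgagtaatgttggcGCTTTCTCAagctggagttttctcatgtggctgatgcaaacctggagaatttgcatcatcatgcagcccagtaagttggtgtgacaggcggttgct
Gstp1: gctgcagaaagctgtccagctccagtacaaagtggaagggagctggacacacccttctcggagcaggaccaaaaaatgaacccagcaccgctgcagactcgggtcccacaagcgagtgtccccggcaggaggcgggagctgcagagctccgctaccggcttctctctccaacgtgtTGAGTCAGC
Promoters of 40 of the 45 members were matched by symbol (not Gclc, Gsr, Gsta4, Gstt2 and Prdx6). Within 250 bases before and 50 after the start, TGACNNNGC was found in 10 of the 40 (25%) and in 14% of all 27025 genes of the table, and TGAGNNNGC in 7 (17.5%) and in 19.8% of all genes. Either spelling was found in 14 members (35%) and in 30.8% of all genes. The longer run TGAGTCAGC, which contains the AP-1 letters TGAGTCA, stood in the promoters of Srxn1 and Gstp1 and in 130 of the 27025 genes (0.481%). In Prdx1 the match on the opposite strand reads TGACTCAGC and overlaps the AP-1 letters TGACTCA. The second spelling was added after the promoters had been looked at. Gstm3 and Prdx5 had neither spelling in their windows. A match is a run of letters and not evidence of binding, and no match says only that these letters are absent from the window.

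The 7 mu-class members lie side by side within 149.1 kb of chromosome 3 (107895821 to 108044894, GRCm38) in the order Gstm5, Gstm7, Gstm6, Gstm3, Gstm2, Gstm1, Gstm4. Alpha-class, mu-class and pi-class genes are near copies of their neighbours, and the sources used here do not state how reads were counted or whether strand was used. Reads of these genes may therefore be split between copies, and their single-gene values are uncertain to that extent.

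Several libraries carried transcripts of other tissues or stood apart, and they bear on the results below. Summed hepatocyte markers (6 genes) came to 56530 to 95710 normalized counts in the liver tables and summed adipocyte markers (8 genes) to 40432 to 144343 in the gWAT tables, so the labelled tissues carried their markers. Male liver nicotine libraries 1 and 5 had the lowest hepatocyte sums of that table (56784 and 56530, against 71869 to 90701 in the other 8), and held 3065 and 6890 normalized counts of 16 male-biased liver genes against 20538 to 55326, and 776 and 723 of 11 Kupffer cell and macrophage markers against 316 to 473. Of 6 stellate cell and fibroblast markers they held 1674 and 1443, nicotine library 4 held 1402, and the other 7 held 606 to 800. Of female-biased liver genes (9 of 15 listed), nicotine libraries 1 and 5 held 553 and 411, against 133 to 255 in the other 8. Male liver nicotine library 4 held skeletal muscle transcripts (6700 against 0 to 7.38) and nicotine library 2 exocrine pancreas transcripts (8539 against 26.2 to 136). In gWAT, markers of the epididymis (male) and of the urothelium and of ovary and uterus (female) were high in some libraries, with values given beside the genes concerned. In bulk tissue, fewer cells of a type and less RNA per cell cannot be told apart.

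Some members differed widely in level between control liver and control gWAT, and others lay close. As mean CPM of recovered reads ± SD (n = 5, and n = 4 for male gWAT), Gclc, the catalytic subunit of the first enzyme of glutathione synthesis, stood at 246 ± 48.3 in female liver and 218 ± 16.9 in male liver, and at 19.6 ± 6.29 and 32.2 ± 4.78 in female and male gWAT. Catalase (Cat), the peroxisomal enzyme that splits hydrogen peroxide, stood at 1804 ± 111 and 2482 ± 137 in liver and at 501 ± 161 and 332 ± 109 in gWAT. The secreted peroxidase Gpx3 went the other way, with 1.35 ± 0.641 and 1.62 ± 1.06 in liver and 161 ± 85.4 and 186 ± 41.7 in gWAT. G6pdx, the enzyme that makes NADPH in the pentose phosphate pathway, was likewise low in liver (4.74 ± 3.21 and 1.84 ± 1.23) and higher in gWAT (53.4 ± 9.00 and 34.8 ± 10.9). Txn1 lay between 266 and 342, Nfe2l2 between 75.9 and 113 and Keap1 between 59.9 and 70.8 as means of the 4 control groups. The tables were normalized separately, so these levels were set side by side and not tested.

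Between the sexes, 34 members could be compared in control liver, and the ranges of the 5 female and 5 male libraries overlapped for 27 of them. The share over all genes was not worked out. This count and that for gWAT below therefore do not show whether members differed more than other genes. Gstp1 was the most different, with 5.37 ± 2.31 CPM in females and 62.0 ± 31.3 in males, 11.5-fold higher in males. Mgst1, the microsomal transferase of the endoplasmic reticulum and mitochondria, stood at 2737 ± 191 in females and 4817 ± 246 in males, and Cat was 1.38-fold higher in males. The theta-class transferase Gstt3 stood at 158.9 ± 47.1 in females and 32.7 ± 12.7 in males, 4.85-fold higher in females, and Gstt1 and Gstm2 were 1.67-fold and 1.39-fold higher in females. Prdx1 was 1.08-fold higher in females with ranges that did not overlap. In control gWAT the ranges overlapped for 33 of 39 members; Gsto1, an omega-class transferase (3.79-fold), and Mgst2 (3.08-fold) were higher in females, and Gclc (1.65-fold) and Prdx6 (1.73-fold) were higher in males. Gpx5 and Gstm6 were also higher in males without overlap, with 0 to 3.87 and 0 to 2.12 CPM in females and 5.28 to 26432 and 2.64 to 60.9 in males, the highest male value of each being in the control library with the most epididymal transcripts. The highest male Gclc (36.2 CPM) and Prdx6 (421 CPM) were in the same library. The highest female Gsto1 (380 CPM) was in control 4, which held the most ovary and uterus transcripts. The part of these transcripts in the sex differences was not tested.

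**Figure D1:**
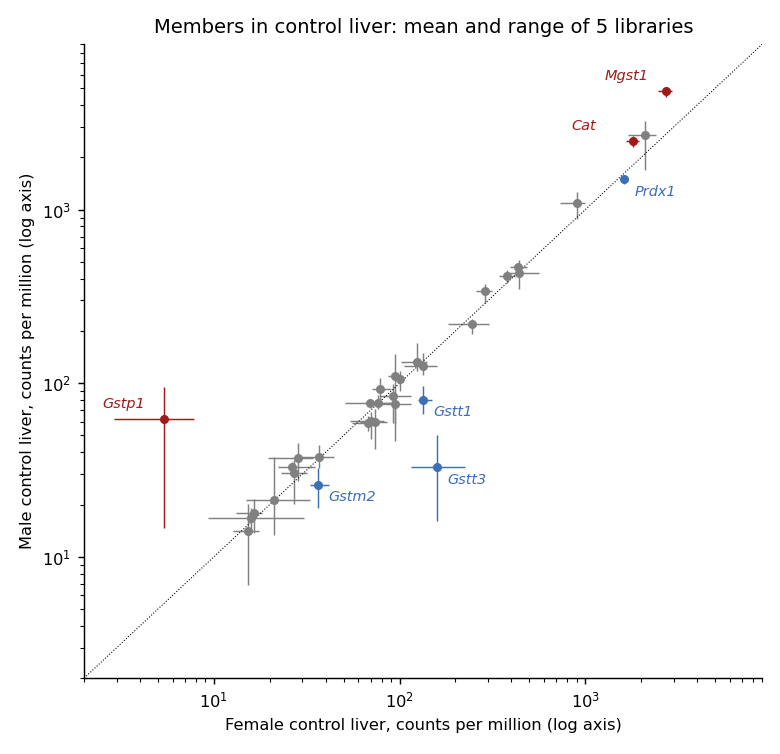
CPM in control liver of females (x axis) and males (y axis), both log axes; points are means of 5 libraries, bars reach from the lowest to the highest library, and the dotted line marks equal levels. Named genes have ranges that do not overlap: Gstp1, Mgst1 and Cat lie above the line and Gstt3, Gstt1, Gstm2 and Prdx1 below it.

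In the liver of daughters, Gsta3 rose and was the 1 member of 36 that passed (all genes: 301 of 9173 passed, 3.28%, and 1.61% passed upwards). Its control libraries held 1879, 1468, 1956, 1820.3 and 1815 normalized counts and its nicotine libraries 2373, 2374, 2550.1, 2290.1 and 1886. Nicotine libraries 1 to 4 lay above every control, and nicotine library 5 lay inside the control range. The mean rose 1.28-fold (1788 ± 188 in controls, 2295 ± 247 in the nicotine group, SD, n = 5 each, log2 change 0.36, SE 0.09, limma adjusted p = 0.0408). Gsta3 was also the 1 member called by edgeR (3.27% of all genes), by DESeq2 (3.64%) and without control library 4 and nicotine library 5, which held some muscle transcripts (1.98%). In omissions of 1 library the call held without control 3 or nicotine 5, but was lost without any of the other 8 libraries (adjusted p from 0.0135 to 0.109 over the 10 omissions). In the authors' deposited table Gsta3 is also the 1 member with an adjusted p under 0.05. Summed endothelial markers (5 of 5 listed) separated the groups of this table: every control lay between 661 and 710 and every nicotine library between 484 and 591; their part in the changes of Gsta3 and of the pathway genes below was not tested and cannot be told apart from the exposure.

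Other transferases had higher means without passing. Gsta4, which conjugates reactive lipid aldehydes, held 37.9, 41.5, 65.2, 34.2 and 29.1 in controls and 53.1, 59.0, 54.8, 75.2 and 60.9 in the nicotine group (log2 change 0.58, SE 0.18, adjusted p = 0.0907). Gstm1 held 739.9, 1001, 1115, 778 and 725 against 905, 1229, 1159, 1115 and 1064 (log2 change 0.34, SE 0.12, adjusted p = 0.117). For both genes the groups overlapped, and both passed once control library 3, their highest control, was left out (adjusted p = 0.0104 and 0.0278). Of 16 soluble transferases tested, 13 had a log2 change above 0, with values from -0.19 to 0.58. Mgst3, a microsomal transferase under the mean of 10 and so not tested, held 3.88, 6.75, 5.75, 4.76 and 1.82 in controls and 12.8, 7.61, 15.0, 12.0 and 16.5 in the nicotine group, without overlap; it was named after its values were seen.

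Neither regulator passed in this table. Nfe2l2 ranged from 146 to 223 among controls and from 155 to 202 among nicotine libraries, which overlapped (log2 change -0.04, SE 0.12, adjusted p = 0.906). Keap1 held 149, 108, 162, 125 and 147 in controls and 113, 113, 119, 110.1 and 113 in the nicotine group (log2 change -0.27, SE 0.11, adjusted p = 0.228); the nicotine libraries lay close together within the control range. The enzymes of glutathione supply (Gclc, Gclm, Gss and Gsr) had log2 changes between 0.04 and 0.27, and the 9 thioredoxin and peroxiredoxin genes between -0.23 (Txnrd1, which reduces thioredoxin) and 0.20 (Txn1). Nqo1, a quinone reductase and common NRF2 reporter, did not pass (log2 change 0.26, adjusted p = 0.661). Over the 36 members, 26 had a log2 change above 0 and the median was 0.12, against 49.3% of genes above 0 and a median of -0.00 over all genes tested. At an unadjusted p under 0.05 there were 9 members, against 17.6% of all genes, and no tested member had groups without overlap, against 4.73% of all genes.

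Of 48 tested genes on a list of other NRF2-linked and thiol-handling or peroxide-handling genes, Ugdh rose, and Osgin1 and Hmox1 fell. Ugdh, which makes the UDP-glucuronate used in glucuronidation, held 69.9, 51.1, 90.1, 55.2 and 62.8 in controls and 119.9, 99.8, 119, 128 and 67.1 in the nicotine group (log2 change 0.68, SE 0.17, adjusted p = 0.0342). Osgin1, an oxidative-stress-induced growth inhibitor, held 43.7, 92.6, 49.9, 82.7 and 85.5 against 29.5, 30.4, 25.8, 44.7 and 55.8 (log2 change -0.91, SE 0.23, adjusted p = 0.0319). Hmox1, the inducible haem oxygenase and a classic NRF2 and BACH1 target, held 45.6, 28.9, 36.4, 31.4 and 25.5 against 13.8, 19.0, 30.1, 14.2 and 10.3 (log2 change -0.97, SE 0.25, adjusted p = 0.0344). In each of these genes the groups overlapped. Each call was lost in 6 to 8 of the 10 omissions of a library (adjusted p up to 0.103), and Hmox1 was also lost without control library 4 and nicotine library 5, which carried muscle transcripts (adjusted p = 0.127). The remaining 45 did not pass, and the median log2 change was -0.04 with 21 of 48 above 0.

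In the liver of sons no member passed, and the members split the nicotine group. Nicotine libraries 1 and 5 were above all other 8 male liver libraries for 15 of 37 members and below them for 7, where 11.2% and 14.8% of all 9093 tested genes did so. The 15 high members included all 5 tested enzymes and carriers of glutathione supply (Gclc, Gclm, Gss, Gsr and Slc7a11), Srxn1, Txnrd1 and Prdx3, the alpha-class and mu-class transferases Gsta2, Gsta4, Gstm1, Gstm2, Gstm3 and Gstm4, and Nfe2l2 itself. Among these 15, Gsta2 and Slc7a11 reached the mean required for testing only through nicotine libraries 1 and 5. In the other male liver libraries they held 1.28 to 7.91 and 0 to 1.05 normalized counts, all under that mean. The filter therefore favoured their place among the 15. The 7 low members were Cat, Gsta3, Gstt1, Gstz1, Mgst1, Prdx4 and Prdx6. These counts describe 2 libraries that also stood apart for hepatocyte, male-biased, female-biased and macrophage genes (values above). The part of those differences in the counts was not tested.

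Srxn1 held 63.3, 70.7, 79.8, 63.6 and 79.5 normalized counts in controls and 751, 54.9, 59.7, 60.2 and 703 in nicotine libraries 1 to 5. Gstm3 held 27.7, 27.4, 33.7, 36.2 and 32.5 in controls and 640.0, 45.6, 27.2, 20.5 and 468 in the nicotine group. For both genes nicotine libraries 2, 3 and 4 lay near or inside the control range, and libraries 1 and 5 lay far above it. Slc7a11 had 0 reads in all 5 controls, which allows up to 2.66 to 3.36 normalized counts per library by counting error, and 105, 0, 1.05, 0 and 129 in the nicotine group. Gsta2 held 7.91, 4.22, 7.09, 4.89 and 2.24 in controls and 114, 2.07, 7.33, 1.28 and 66.3 in the nicotine group. Slc7a11 and Gsta2 were thus low in every male liver library except nicotine libraries 1 and 5.

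Gclc, the rate-limiting subunit, held 430.1, 367, 421, 438 and 408 in controls and 1025, 334, 315, 244 and 1177 in the nicotine group. Gss, glutathione synthetase, followed with 26.7, 27.4, 39.0, 40.1 and 34.7 against 81.7, 34.2, 29.3, 28.2 and 77.8. Gstm1 held 662 to 978 in controls and 2172, 743, 862, 739.9 and 1809.8 in the nicotine group. In the other direction, Mgst1 held 8576 to 9724 in controls and 4345, 9727, 9968, 9729.6 and 5014 in the nicotine group. Cat, the hepatic catalase, held 4796, 4741, 4816, 4739.9 and 4413 in controls and 1935, 4199.6, 4224, 4392 and 2362 in the nicotine group. Cat and Mgst1 were lowest in the libraries in which Srxn1 and Gstm3 were highest, and all Cat nicotine values lay below all controls, nicotine library 4 only just.

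**Figure D2:**
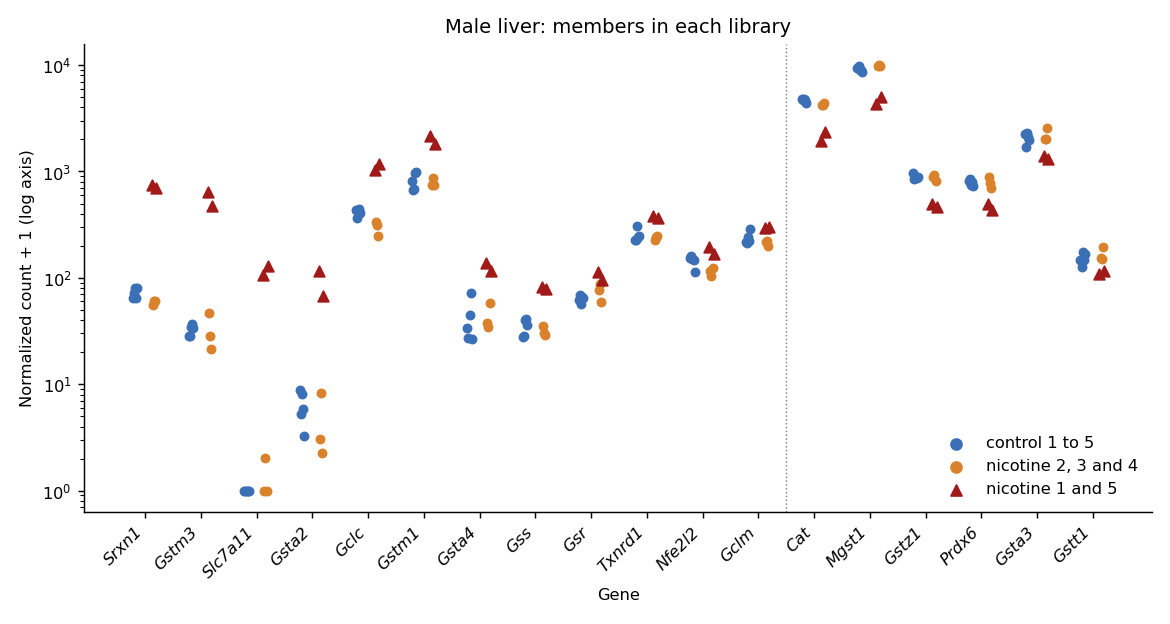
Normalized count + 1 (log axis) of 18 members in each male liver library; blue points are the 5 controls, orange points nicotine libraries 2, 3 and 4, and red triangles nicotine libraries 1 and 5. Left of the dotted line nicotine libraries 1 and 5 lie above the other 8 libraries, and right of it below them.

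Because the nicotine group was divided in this way, its spread was wide and the fitted changes small against their errors. The log2 change of Gstm3 was 1.58 (SE 0.81, limma adjusted p = 0.382) with all libraries and -0.09 (adjusted p = 0.92) without nicotine libraries 1 and 5. That of Srxn1 went from 1.17 (SE 0.69, adjusted p = 0.452) to -0.28, and that of Gclc from 0.28 (SE 0.38, adjusted p = 0.77) to -0.48 (adjusted p = 0.18). Without the 2 libraries 0 of 35 tested members passed (0.0671% of all genes), and 20 of 35 had a log2 change above 0, against 27 of 37 with all libraries. In the 3 remaining nicotine libraries Gclc was below every control, while Gsr was above every control in libraries 2 and 3.

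Gpx4, the peroxidase that reduces lipid hydroperoxides in membranes, was the member of smallest p and did not depend on these libraries. It held 29.7, 28.5, 12.4, 24.5 and 39.2 normalized counts in controls and 57.4, 40.4, 51.3, 105 and 44.2 in the nicotine group, and every nicotine library lay above every control. The mean was 2.22-fold higher (26.8 ± 9.71 and 59.7 ± 26.2, log2 change 1.12, SE 0.30, limma adjusted p = 0.15, 1.22 without nicotine libraries 1 and 5). DESeq2 on the recovered reads called it (adjusted p = 0.029) and edgeR did not (adjusted p = 0.15), and in the authors' deposited table its adjusted p is 0.0424. Nicotine library 4, with the highest Gpx4, carried muscle transcripts, and control 3, the lowest, was also low for Gpx1 (3036 against 4984 to 6277) and Gstp1 (26.6 against 94.1 to 181).

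Groups without overlap were found for Gpx4 (higher), Cat and the theta-class Gstt2 (lower), 3 of 37 members, where 3.16% of all genes did not overlap. Gstt2 held 155, 153, 137, 146 and 140.0 against 127, 121, 137, 137 and 112 (log2 change -0.21, adjusted p = 0.417), and the nearest libraries of the groups nearly touched. Gsr, glutathione reductase, held 60.3, 67.5, 55.8, 65.6 and 63.8 against 113, 76.7, 86.9, 58.9 and 95.0 (log2 change 0.42, SE 0.17, adjusted p = 0.285), and Gstm2 followed (0.48, adjusted p = 0.339). With limma 0 of 37 passed, where 5 of 9093 genes did (0.0550%, with 0.0220% upwards and 0.0330% downwards). At an unadjusted p under 0.05 there were 4 members with limma, against 14.5% of all genes. edgeR called 0 members (0.0330% of all genes, 9 members at an unadjusted p under 0.05) and DESeq2 called Gpx4 alone (2.06% of all genes). The regulators Nfe2l2 (-0.06) and Keap1 (-0.01) had log2 changes near 0, although Nfe2l2 was higher in nicotine libraries 1 and 5 (195 and 165) than in the other 8 (104 to 158). Nqo1, under the mean of 10, held 19.9 and 15.6 in those libraries and 1.05 to 12.8 in the others.

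The list of other pathway genes was also divided by these libraries. Of 48 tested genes, 11 were above all other libraries in nicotine libraries 1 and 5 (Hmox1, Ephx1, Pgd, Abcc4, Cbr1, Ugdh, Sqstm1, Slc48a1, Entpd5, Slc3a2 and Sod3) and 12 below (among them Sod1, Sod2, Glo1 and Hagh), where 11.2% and 14.8% of all genes were. Slc3a2, the heavy chain that pairs with xCT, held 173 and 199 in these libraries and 34.6 to 79.5 in the others. Ugdh held 452 and 402 against a highest value of 108 elsewhere, and the autophagy receptor Sqstm1 held 2252 and 2069 against 675 to 848. None of the 48 passed with limma, edgeR or DESeq2, and 7 had an unadjusted p under 0.05 with limma, a share near the 14.5% of all genes. The 3 of smallest p were Txnrd3 (log2 change -0.65, SE 0.20, adjusted p = 0.188), Abcc4, an efflux pump (1.25, SE 0.41, adjusted p = 0.213), and the carboxylesterase Ces1g (-0.44, SE 0.16, adjusted p = 0.246).

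In the gWAT of daughters 8 of 38 members passed, 3 higher and 5 lower, where 25.2% of all 10532 tested genes passed (12.4% higher and 12.8% lower), so the share of members called was near that of all genes. Gclc, Gstz1 and Prdx1 rose, and Prdx5, Gsto1, Gstt2, Gstt3 and Mgst1 fell. The groups did not overlap for 4 members (Gclc, Keap1, Prdx5 and Mgst1), against 16.7% of all genes. Over the 38 members, 16 had a log2 change above 0 and the median was -0.05, against 48.4% of all genes and a median of -0.03. edgeR (24.3% of all genes) and DESeq2 (28.6%) each called 10 members, these 8 with Txn1 lower and Gpx5 higher. Gpx5 reached the mean of 10 only through nicotine libraries 2 and 5 (58.0 and 95.6), so the filter favoured its direction. These libraries also held the highest epididymal sums (47.1 and 76.9), whose part was not tested. The authors' deposited table lists 10 members with an adjusted p under 0.05, 3 higher and 7 lower, with Txn1 and Gstp1 in addition to these 8.

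Gclc, at chr9:77754535-77794485 on the plus strand, held 21.6, 41.2, 22.7, 38.5 and 35.6 normalized counts in controls and 53.9, 90.6, 66.4, 63.7 and 99.4 in the nicotine group. Every nicotine library lay above every control, and the mean rose 2.34-fold (31.9 ± 9.16 in controls, 74.8 ± 19.3 in the nicotine group, log2 change 1.21, SE 0.24, adjusted p = 0.00298). Its partner subunit Gclm did not pass (28.99 to 65.0 against 19.5 to 77.3, log2 change -0.12, adjusted p = 0.817), nor did Gsr (-0.26, adjusted p = 0.68) or Srxn1 (0.02, adjusted p = 0.951), and Gss had a log2 change of 0.57 (adjusted p = 0.291). Prdx5, a peroxiredoxin of mitochondria and peroxisomes, at chr19:6906697-6910106 on the minus strand, held 201, 207, 210.5, 257 and 147 in controls and 60.8, 73.7, 142, 66.1 and 93.8 in the nicotine group. All nicotine values were below all controls, by the smallest margin between nicotine 3 and control 5, and the mean fell (204 ± 39.1 in controls, 87.2 ± 33.0 in the nicotine group, log2 change -1.27, SE 0.23, adjusted p = 0.00172). Both calls held in all 10 omissions of a library and under each of the 10 other settings and tests.

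Prdx1, the cytosolic peroxiredoxin, held 894, 777, 804, 939 and 872 in controls and 892, 1227, 1442, 1416 and 1104 in the nicotine group, so that only nicotine library 1 lay within the control range (log2 change 0.49, SE 0.16, adjusted p = 0.0421). Txn1, which reduces the peroxiredoxins, held 458, 392, 400.0, 590.0 and 359 against 267, 315, 289, 329 and 373 and did not pass (log2 change -0.47, SE 0.17, adjusted p = 0.052). Keap1 held 107, 95.3, 112, 66.0 and 113 in controls and 132, 123, 124, 177 and 124 in the nicotine group, without overlap, and did not pass (log2 change 0.47, SE 0.19, adjusted p = 0.0775). Nfe2l2 differed by less than its spread between libraries (185 ± 23.7 and 196 ± 27.7, log2 change 0.08, SE 0.16, adjusted p = 0.754). Among the glutathione peroxidases and catalase 0 of 7 passed, with log2 changes of -0.45 for Gpx1, -0.58 for Gpx4, -1.05 for Gpx7 (adjusted p = 0.113) and -0.04 for Gpx3.

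Of 12 soluble transferases, Gstz1 rose and Gsto1, Gstt2 and Gstt3 fell. Gstz1, which isomerizes maleylacetoacetate in tyrosine breakdown, held 777, 374, 728, 443 and 542 in controls and 683, 1170.1, 1199, 1395 and 701 in the nicotine group (1.80-fold, log2 change 0.84, SE 0.25, adjusted p = 0.026). Gsto1, an omega-class enzyme of thiol transfer, held 133, 253, 179.9, 621 and 258 against 78.0, 101, 159, 74.5 and 169 (log2 change -1.18, SE 0.36, adjusted p = 0.0265). Mgst1 held 5169, 2695, 3121, 3203 and 2788 against 1629, 2122, 2097, 2505 and 2145, without overlap (log2 change -0.66, SE 0.20, adjusted p = 0.0284). The theta-class genes Gstt3 (71.3 ± 25.4 and 36.3 ± 17.2, log2 change -1.002, SE 0.29, adjusted p = 0.0228) and Gstt2 (111 ± 32.7 and 66.9 ± 15.8, log2 change -0.71, SE 0.24, adjusted p = 0.0419) overlapped between the groups, while Gstt1 had a log2 change of 0.42 (adjusted p = 0.247).

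**Figure D3:**
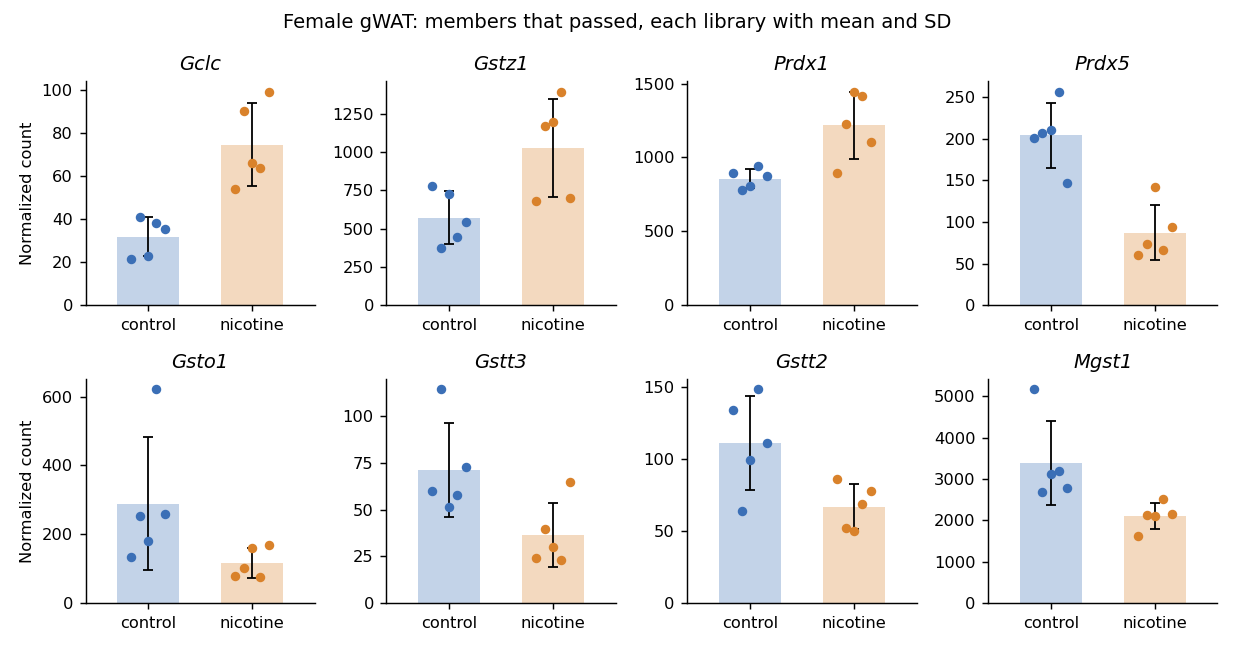
Normalized counts of the 8 members that passed in female gWAT; points are libraries, bars group means and whiskers SD (n = 5 each). Gclc, Prdx5 and Mgst1 separate the groups without overlap, and the other 5 overlap by 1 or more libraries.

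These other calls rested on few libraries. In the 10 omissions of a library, Gstt3 was called in 8 (lost without control 2 or nicotine 4, adjusted p up to 0.0609), Mgst1 in 7 (lost without control 1, nicotine 1 or nicotine 2, up to 0.0571), and Gsto1 and Gstz1 in 5 each (up to 0.0714 each, both lost without control 4, nicotine 2 or nicotine 4). Gstt2 was called in 3 (up to 0.102) and Prdx1 in 1 (up to 0.102). Leaving out nicotine library 2 or 4 left 3 members called. The share of all genes called in these omissions was not worked out. Ovary and uterus markers (5 of 6 listed, Cyp11a1 not) summed to 4434 and 1575 in controls 4 and 5 and to 20.6 to 181 in the other 8 libraries; these controls also held the highest Gsto1, and control 4 the highest Hmox1. Without both of them Gclc and Prdx5 were the members that passed, 2 of 37, where 15.4% of all genes did, and the other 6 did not (adjusted p from 0.0521 for Mgst1 to 0.1997 for Gstt2; Gsto1 log2 change -0.73, adjusted p = 0.134). Several measures separated the groups of this table. Mitochondrial ribosomal RNA made up between 8.23% and 13.0% of reads in controls and between 19.3% and 32.5% under nicotine. Summed Kupffer cell and macrophage markers (10 of 11 listed, Clec4f not, and Vsig4 at 0 in the nicotine group) lay between 459.9 and 917 in controls and between 123 and 306 under nicotine. Their part in the results of this table was not tested, and with the groups separated on both measures they cannot be told apart from the exposure.

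Gstm1 and Gsta4 differed between libraries more than between groups. Gstm1 held 278, 1243, 232, 153 and 154 in controls and 276, 153, 360.0, 151 and 1086 in the nicotine group, and Gsta4 held 25.5, 299.6, 25.3, 27.5 and 24.8 against 75.7, 53.1, 135, 52.9 and 399. Both genes, with Gstm4, were highest in control 2 and nicotine 5, 3 of 38 members where 2.61% of all genes did so, and Gstm2 was lowest there (1.35% of all genes). A list of 10 urothelial genes, chosen after seeing the data and all listed in the table, summed to 2429 and 1991 in these libraries and to 25.4 to 426 in the other 8. Summed mesothelial markers (5 of 5 listed) were also highest there (634 and 479, against 54.1 to 245). Control 2 also held skeletal muscle transcripts (28091). Without these libraries, an omission not planned beforehand, Gsta4 rose (log2 change 1.47, limma adjusted p = 0.00415, against 1.26 and 0.185 with all). Prdx1 was no longer called (adjusted p = 0.0999), and 8 of 37 members passed, where 21.2% of all genes did. Of the libraries kept, nicotine 1 and 3 held the highest urothelial sums (406 and 426, against 32.3 to 121 in the controls). They also held the highest Gsta4 of those kept (75.7 and 135). Nicotine 2 and 4, with sums of 25.4 and 26.4, held 53.1 and 52.9, against 24.8 to 27.5 in the controls kept. The part of urothelial transcripts in the Gsta4 call was not tested. Nqo1, under the mean of 10, was also highest in control 2 and nicotine 5 (22.0 and 25.3, against 2.94 to 9.09).

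Among the other pathway genes in female gWAT, 11 of 47 passed, 5 higher and 6 lower, a share close to the 25.2% of all genes. Entpd5, an endoplasmic reticulum nucleotidase, changed most by p: it held 49.98, 73.3, 51.5, 48.6 and 38.1 in controls and 169, 206, 205, 233 and 203 in the nicotine group (log2 change 1.96, SE 0.18, adjusted p = 2.99e-05), without overlap. The mitochondrial thioredoxin Txn2 (0.65), the reductase Txnrd3 (1.04), the glutathione conjugate pump Abcc1 (0.66) and the oxidase Aox1 (0.67) also rose. Of the genes that fell, Hmox1 held 28.4, 35.7, 41.1, 87.9 and 36.4 against 12.6, 21.7, 21.8, 8.41 and 16.9 (log2 change -1.40, SE 0.33, adjusted p = 0.00777), the biliverdin reductase Blvrb had a log2 change of -0.85 and the haem transporter Slc48a1 of -0.64; these calls held in 6 and 3 of 10 omissions of a library. The other biliverdin reductase, Blvra, did not pass (log2 change 0.04, adjusted p = 0.922). Hpgds, a sigma-class glutathione transferase that makes prostaglandin D, fell (log2 change -1.72, SE 0.46, adjusted p = 0.0147), as did the amino acid carrier chain Slc3a2 (-0.71) and the cytosolic superoxide dismutase Sod1 (-0.55, adjusted p = 0.0498). Hmox1 and Hpgds are also expressed by macrophages, whose summed markers were lower in the nicotine group (values above). The part of these cells in the 2 changes was not tested. Entpd5, Hmox1 and Hpgds were called in all 10 omissions, and Sod1 in 2 of 10. Without control libraries 4 and 5, which held ovary and uterus transcripts, 3 of 47 passed (Entpd5, Hmox1 and Slc3a2), where 15.4% of all genes did, and Hpgds did not (log2 change -1.20, adjusted p = 0.145).

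In the gWAT of sons 0 of 41 members passed with limma, edgeR or DESeq2, as did 0 of all 11210 genes (0%). With limma no member had an unadjusted p under 0.05, against 1.62% of all genes, and 1 did with edgeR and with DESeq2. No member had groups without overlap, against 0.731% of all genes. The members of smallest p were Gpx4 (133 ± 37.5 in 4 controls and 199.8 ± 59.4 in 5 nicotine libraries, log2 change 0.57, SE 0.27), Srxn1 (0.61, SE 0.32), Txn1 (0.43, SE 0.23) and Prdx5 (0.42, SE 0.22), each with an adjusted p of 1.00. Of the 41 members, 36 had a log2 change above 0 and the median was 0.21, against 51.0% of all genes and a median of 0.01. All 9 thioredoxin and peroxiredoxin genes and all 7 peroxidases and catalase had a log2 change above 0 (0.03 to 0.61 and 0.11 to 0.69), and Nfe2l2 (-0.20) and Keap1 (-0.11) below 0. Members of a table share their libraries, so this count of signs is not a count of independent results; without the first control library and nicotine library 1 it was 34 of 40, with 0 passing and 2 at an unadjusted p under 0.05. In omissions of 1 library the number of members with a log2 change below 0 ran from 5 of 42 (without nicotine 2) to 15 of 42 (without the fourth control library), and it was 12 of 43 without the second control library, 10 of 40 without nicotine 1, 10 of 42 without nicotine 5, 9 of 41 without the first control library, 9 of 43 without the third, and 8 of 41 without nicotine 4.

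Gpx5, a peroxidase secreted by the epididymis, had the widest spread of all members in this table. It held 47559, 38.2, 323 and 8.68 normalized counts in the 4 controls and 39916, 0.941, 25.2, 2754 and 3156 in the nicotine group, so both groups covered almost the whole range. Summed epididymal markers (8 of 8 listed) came to 32040, 45.5, 489 and 4124 in controls against 23352, 1539, 3621, 5415 and 2216. The first control library and nicotine library 1 were above all other libraries for 10 of 41 members (Gclc, Gclm, Gpx5, Gstm1, Gstm2, Gstm6, Gstm7, Gstt3, Prdx6 and Slc7a11) and below for 5 (Cat, Gpx1, Gstt1, Gstt2 and Gstz1), where 16.4% and 14.9% of all genes did so. Gstm7 held 437, 61.9, 51.0 and 6.95 in controls and 389, 7.53, 276, 135 and 68.0 in the nicotine group, and Slc7a11 152, 6.37, 3.00 and 4.34 against 107, 6.59, 70.6, 27.2 and 4.00. Gstm3, under the mean of 10 in gWAT, held 36.6 in nicotine library 1 and 0 to 0.968 in the other 8 libraries. The part of epididymal transcripts in these values was not tested.

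**Figure D4:**
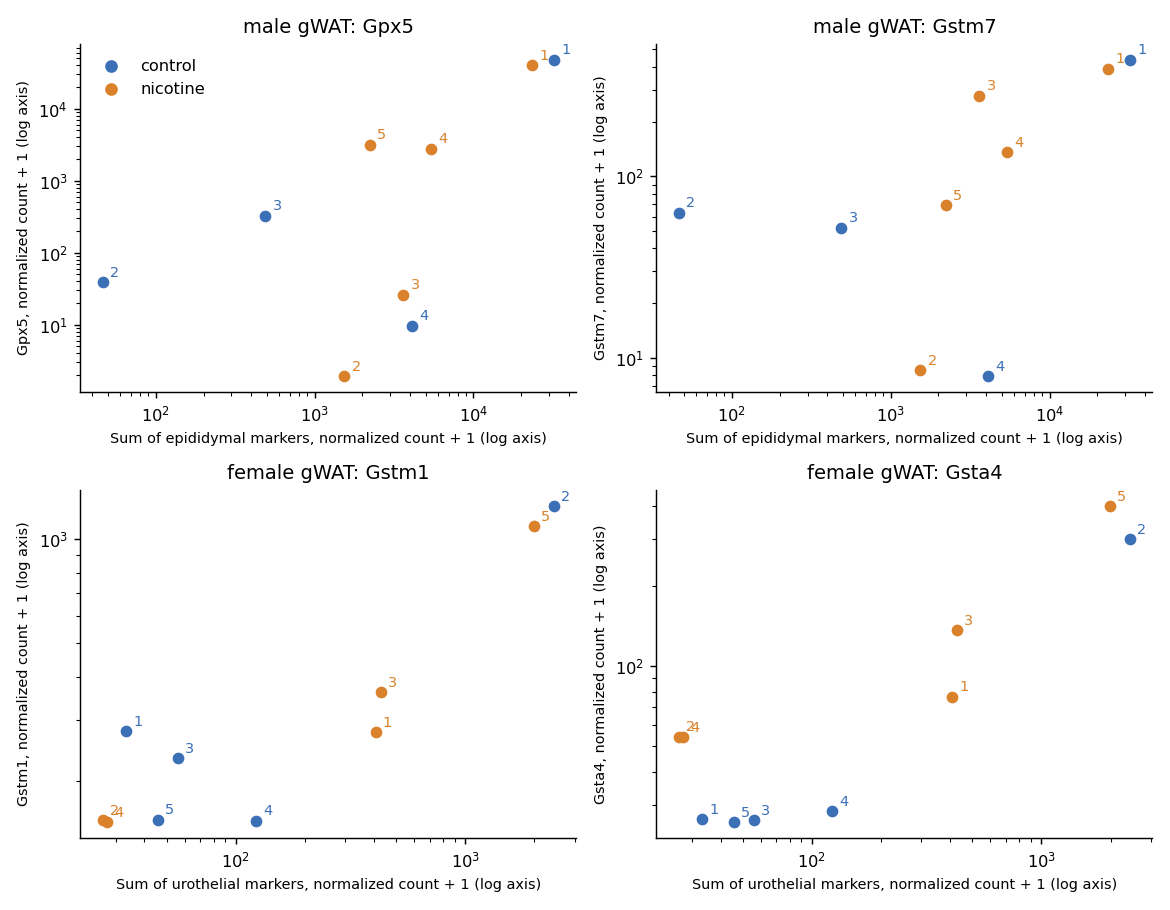
Members against summed markers of a neighbouring tissue, by library (normalized count + 1, log axes; numbers are libraries). Upper panels show Gpx5 and Gstm7 against 8 epididymal markers in male gWAT, lower panels Gstm1 and Gsta4 against 10 urothelial markers in female gWAT; the libraries with the highest marker sums, a control and a nicotine library in each table, also hold the highest values of the 4 members.

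In female gWAT, Gpx5 held 58.0 and 95.6 in nicotine libraries 2 and 5 and 0 to 10.8 in the other 8 libraries, where the epididymal list summed to 47.1 and 76.9 and to 0 to 29.8. Of 49 other pathway genes tested in male gWAT, none passed with limma, edgeR or DESeq2, and 0 had an unadjusted p under 0.05 with limma. The 3 of smallest p were Txnrd3 (log2 change -0.52, SE 0.24), Pgd (0.59, SE 0.35) and Me1 (0.89, SE 0.53), the last 2 being NADPH-making enzymes, each with an adjusted p of 1.00.

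Whether the change differed between sons and daughters was tested by the difference of the log2 changes (male minus female). In gWAT 3 of 37 members passed, where 8.87% of all 10042 genes did. Prdx5 changed by -1.27 in daughters and 0.42 in sons (difference 1.69, SE 0.33, limma adjusted p = 0.00518), and Gclc by 1.21 and -0.21 (difference -1.42, SE 0.39, adjusted p = 0.0311). Txn1 changed by -0.47 and 0.43 (difference 0.90, SE 0.27, adjusted p = 0.0445). The Prdx5 difference was called in all 19 omissions of a library, that of Gclc in 13 and that of Txn1 in 4 (adjusted p up to 0.103). edgeR called Gclc, Prdx5 and Gsto1 and not Txn1 (adjusted p = 0.053), and without female control libraries 4 and 5 Gclc and Prdx5 passed and Txn1 did not (adjusted p = 0.0863). In sons, Prdx5 held 177, 213, 177 and 161 in controls and 232, 173, 231, 235 and 387 in the nicotine group, and Gclc 65.2, 51.0, 46.0 and 59.0 against 90.4, 59.3, 41.6, 34.4 and 30.7, with overlap in both.

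**Figure D5:**
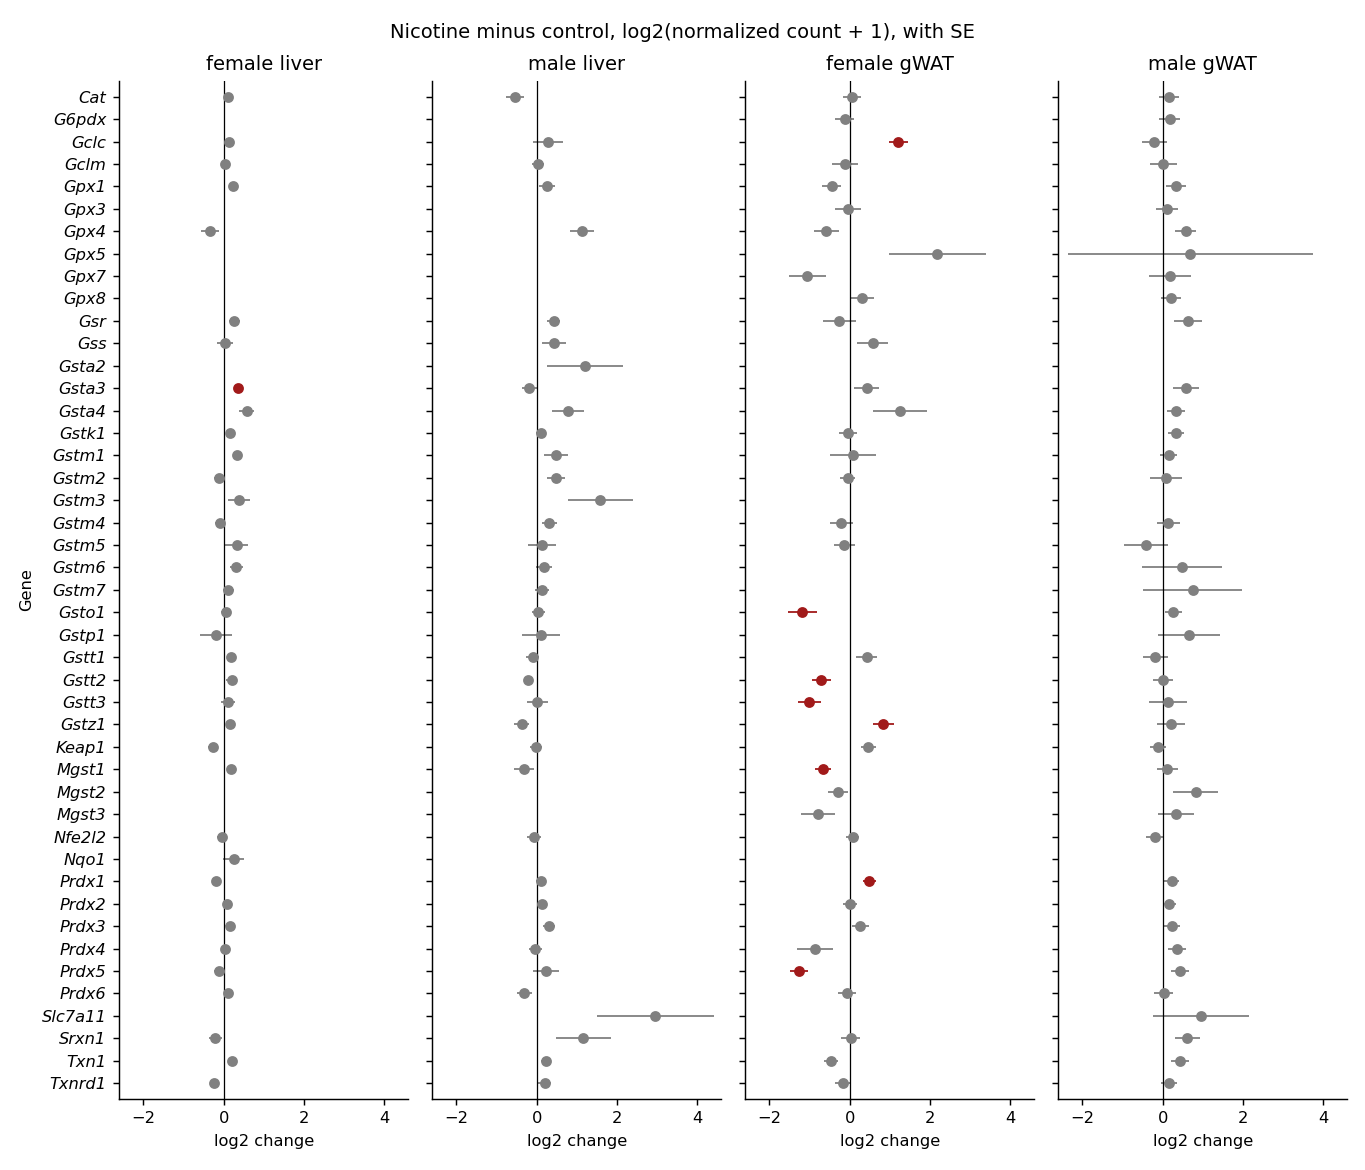
Fitted log2 change (x axis, nicotine against control, normalized count + 1) of each tested member with its SE, in the 4 tables; red points passed the adjusted threshold of 0.05 and missing points were not tested. Gsta3 passed in female liver and 8 members in female gWAT, and the widest errors are those of Gpx5 in gWAT and Slc7a11.

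In liver 0 of 35 members passed the test of the sex difference, where 1.56% of all 8699 genes did; 8 members had an unadjusted p under 0.05, against 16.3% of all genes, and edgeR also called 0. Gpx4 came closest, with a log2 change of -0.34 in daughters and 1.12 in sons (difference 1.46, SE 0.39, adjusted p = 0.055). Its female libraries held 33.0, 31.8, 34.5, 24.7 and 26.4 in controls and 27.5, 17.1, 21.5, 17.4 and 39.3 in the nicotine group, which overlapped. Gpx4 passed when female nicotine 5, male control 5 or male nicotine 2 or 3 was left out (adjusted p down to 0.0287). Cat (difference -0.65, SE 0.24, adjusted p = 0.185) and Gsta3 (-0.55, SE 0.21, adjusted p = 0.202) followed, both with male nicotine libraries 1 and 5 below all other male libraries.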

How the data were processed

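The members and gene lists were chosen with earlier results of these data known. Values are normalized counts, a signal that the authors deposited per gene and library with their own log2 fold changes, standard errors (a score here), p-values and adjusted p-values, per the file headers. Per the submitters' processing notes, the tools were cutadapt, STAR and DESeq2 and the build mm10. Every value was a whole multiple of a per-library step (100% within 0.1), so reads were recovered by division. In each table, genes averaging at least 10 normalized counts were fitted with limma 3.58.1 (R 4.3.3) after adding 1 and taking log2; p-values were adjusted by Benjamini-Hochberg and called under 0.05, and sex differences were tested with an interaction term. edgeR 4.0.16 and DESeq2 1.42.0 on recovered reads, other pseudocounts and filters, quantile normalization, a replicate block and omitted libraries were alternatives. Pipelines were tested on simulated data. Genes named with full values were members past the threshold or without overlap, the 4 members of smallest p per table, the 3 per tissue on the sex difference, a set of common NRF2 targets, and list genes past the threshold or the 3 of smallest p; others were chosen after their values were seen. The labels list 5 male gWAT controls; the table has 4 control columns, used as unnumbered replicates. Same-numbered control and nicotine libraries did not deviate together, so numbers were not treated as pairs.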

Additional observations from a re-analysis of the deposited data

Results flagged for a closer look

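Gclc, Prdx5 and Txn1 changed differently in sons and daughters in gWAT by the interaction test, with male minus female log2 changes of -1.42, 1.69 and 0.90. All 3 differences passed the threshold with limma, as did 8.87% of all 10042 genes. In 19 omissions of a library, Prdx5 was called in 19, Gclc in 13 and Txn1 in 4. Txn1 did not pass with edgeR (adjusted p = 0.053), nor with limma without female control libraries 4 and 5 (adjusted p = 0.0863). The libraries of the sexes were normalized in separate tables.

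In 10 of 84 groups examined, a single library stood far from the other libraries of its group. The measure was the gap to the nearest library as a share of the group's range. Most genes were picked by their results and the groups share libraries, so this count cannot be set against a chance rate. In female liver, Gsta3 in control 2 (1468 normalized counts, against 1815 to 1956 in the other controls) was low. In male liver, Gpx4 in nicotine 4 (105, against 40.4 to 57.4) was high and Cat in control 5 (4413, against 4739.9 to 4816) low. In female gWAT, Gsto1 in control 4 (621, against 133 to 258), Mgst1 in control 1 (5169, against 2695 to 3203), Keap1 in nicotine 4 (177, against 123 to 132) and Hmox1 in control 4 (87.9, against 28.4 to 41.1) were high. In male gWAT, Srxn1 in the first control library (107, against 43.4 to 51.9), Prdx5 in nicotine 5 (387, against 173 to 235) and Txnrd3 in the second control library (95.6, against 67.0 to 69.5) were high.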

How the results depend on the processing

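In daughters, 1 liver member was called under most settings, 2 without a filter on low counts, and 0 to 3 in omissions of 1 library; the liver pathway list gave 0 to 3. In sons, 0 liver members were called under each setting except DESeq2, which called 1. In female gWAT, 3 to 8 members and 4 to 13 pathway list genes were called in omissions; the list gave 6 with a mean of 50 or more and 7 without control library 2 and nicotine library 5. Without control libraries 4 and 5, an omission chosen after seeing the data, 2 members and 3 list genes were called, with 3 controls left. In female gWAT, the omission of control library 2 and nicotine library 5 was also not planned beforehand. In male gWAT, the same holds for the omission of the first control library and nicotine library 1. On the sex difference, omissions gave 0 to 1 members in liver and 1 to 4 in gWAT. The share of all genes called was not worked out for omissions of 1 library or for the other filters. Those counts do not compare members with other genes. The causes were not tested. Among recomputed values of single named genes, 772 kept their direction and side of the threshold, 163 kept the direction and lost the call, 8 gained it, and no called change reversed.

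Same-numbered libraries correlated at -0.277 to 0.173, with 1 pair over 0.1, so the replicate block is given here only. With the block 2 members in female liver, 0 in male liver and 5 in female gWAT were called, and 4, 0 and 7 pathway list genes. The share of all genes called with the block was not worked out, so these counts do not compare members with other genes. No paired analysis was possible in male gWAT because its control columns carry no sample number.

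Depth limits genes at a few reads, such as Slc7a11, Nqo1 and Gsta2. Members of 1 table share libraries, and female gWAT groups differed in mitochondrial RNA and macrophage markers throughout.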
